A study of Mus musculus with 10 samples.

Results

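The genes examined serve the generation and spread of the impulse in the heart: the sodium channel subunit gene Scn4b and the related Scn7a, the pacemaker channel genes Hcn2 and Hcn4, and the connexin genes Gja1, Gja5 and Gjc1. These 7 were chosen by symbol from the 23337 genes listed in the authors' deposited table. The cells were cardiomyocytes of wild-type mice, isolated by collagenase perfusion of the heart and purified by fluorescence-activated sorting. One group of 5 libraries came from mice given AAV9-cTNT-GFP and the other group of 5 from mice given AAV9-cTNT-dnMKL1-GFP. Both groups thus carried an AAV9 vector with GFP, driven by the cTNT promoter, which is active in cardiomyocytes, and the dose was 500000000 viral genomes (vg) per gram, injected on postnatal day 1, with cells collected on postnatal day 14. The prefix dn usually stands for dominant negative, and MKL1 is a coactivator of the transcription factor SRF. The comparison asks which of these transcripts differ in cardiomyocytes that carry dnMKL1.

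Sodium channels open at the start of the cardiac action potential, and their beta subunits alter when the pore-forming alpha subunit opens and closes. HCN channels pass the inward current of pacemaking, which opens on hyperpolarization and is tuned by cyclic AMP. Connexins form the gap junctions through which the impulse passes from cell to cell. Working ventricular muscle uses mainly the connexin of Gja1 (Cx43), whereas atrial muscle, the fast-conducting Purkinje fibres and arterial endothelium also use that of Gja5 (Cx40), and nodal and smooth muscle cells that of Gjc1 (Cx45).

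SRF binds DNA at the CArG box, so the sequence upstream of the genes is shown for those with the largest changes in the results below (Gja5, Scn4b and Hcn2) and for the most abundant one (Gja1). RefSeq promoters on GRCm38.p6, the build named mm10 in the submitters' processing notes, were matched for 6 of the 7 genes. Each line gives the 250 bases before the RefSeq start, read 5′ to 3′ on the strand of the gene. Only 1 start per gene was searched. The GENCODE annotation, used for positions below, starts Gja5 at 96904693, far before the RefSeq start at 97032402. It starts Scn4b at 45138395, before the RefSeq start at 45138624, so most of the printed Scn4b stretch lies inside the gene there. Sequence before those earlier starts was not searched for Gja5 and hardly for Scn4b. Capitals mark a match to one of 5 motifs that were searched on both strands: the CArG box, CATTCC (the core of TEAD sites), TGANTCA (AP-1), GGTGTGA (T-box) and GATAA (GATA factors). The sequences lie at chr3:97032152-97032401 (plus strand), chr9:45138374-45138623 (plus strand), chr10:79716384-79716633 (plus strand) and chr10:56377050-56377299 (plus strand).
Gja5: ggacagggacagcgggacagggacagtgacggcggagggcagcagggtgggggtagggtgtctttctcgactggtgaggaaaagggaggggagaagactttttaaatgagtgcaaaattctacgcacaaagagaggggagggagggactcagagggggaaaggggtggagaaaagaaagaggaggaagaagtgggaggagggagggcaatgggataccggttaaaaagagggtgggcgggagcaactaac
Scn4b: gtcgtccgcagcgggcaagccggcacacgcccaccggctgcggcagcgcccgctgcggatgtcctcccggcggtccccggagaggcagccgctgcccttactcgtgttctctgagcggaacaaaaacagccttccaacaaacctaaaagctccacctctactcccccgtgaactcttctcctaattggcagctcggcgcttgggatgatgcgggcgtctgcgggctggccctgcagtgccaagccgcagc
Hcn2: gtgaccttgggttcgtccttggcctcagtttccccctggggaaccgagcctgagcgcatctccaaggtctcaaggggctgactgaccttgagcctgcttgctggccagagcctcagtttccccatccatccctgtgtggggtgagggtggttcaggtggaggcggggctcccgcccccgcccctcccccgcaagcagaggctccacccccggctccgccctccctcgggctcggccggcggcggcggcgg
Gja1: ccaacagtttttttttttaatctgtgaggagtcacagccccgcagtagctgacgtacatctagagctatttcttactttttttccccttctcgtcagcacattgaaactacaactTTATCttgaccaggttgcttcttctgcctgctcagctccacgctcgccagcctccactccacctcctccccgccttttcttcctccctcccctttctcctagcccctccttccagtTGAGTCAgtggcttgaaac
In windows that run on to 50 bases after the start, a CArG box was found in 0 of the 6 promoters, against 1.63% of 32851 RefSeq promoters of the same length. A stretch that misses the CArG box by 1 letter was likewise found in 0 of the 6, against 19.9% of all. Gja1 held TGAGTCA from base -19 to -13 and a GATAA match on the opposite strand from -135 to -131. Scn4b held CATTCC across its start, from base -1 to 5, outside the printed stretch for all but its first base. Scn7a held CATTCC and GATAA matches on the opposite strand, and Gja5, Hcn2 and Hcn4 held no match. Over all promoters the shares were 14.7% for CATTCC, 7.81% for TGANTCA, 3.98% for GGTGTGA and 25.4% for GATAA. These are matches of letters only and are no measure of binding.

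The authors' deposited table gives each gene's base mean (the normalized count averaged over the libraries), a log2 fold change with its standard error (SE) and a Wald p-value with Benjamini-Hochberg adjustment, here called past the threshold when under 0.05. Values per library were not used here, so each group is described by an implied mean: the 2 means whose average is the base mean and whose ratio is the fold change. Positive values mean higher in dnMKL1, a direction read from Mkl1, which stood at 9.80 (SE 0.15) on the log2 scale in the authors' deposited table, reads of the vector included. Library totals estimated from recovered size factors ran from 8803005 to 17123500 counts in GFP and from 8835151 to 17228537 in dnMKL1. The cardiomyocyte label was met by its markers: Myh6 had a base mean of 594986, and the 10 listed markers summed to implied means of 1604195 normalized counts in GFP and 878220 in dnMKL1, with 0 members higher and 7 lower. Over all genes tested, 16.6% were higher and 17.4% lower. In such bulk samples fewer cells of a type and less RNA per cell cannot be told apart. All fold changes are relative to the authors' scaling. Scaling both groups to the same summed count would add 0.29 to every log2 fold change.

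All 7 genes were past the threshold, 5 higher and 2 lower in dnMKL1, beside 34.1% of the 14056 genes tested (16.6% higher and 17.4% lower). Their median log2 fold change was 0.46, against 0.021 over all genes tested. The genes had been chosen with results of these data known, so their count is a description. Gja5 and Scn7a rose most, Scn4b and Hcn2 fell most, and Gja1, Gjc1 and Hcn4 rose by smaller amounts. With both groups scaled to the same summed count, the same 7 genes were past the threshold in the same directions, where 47.0% of all genes tested were past it (40.4% higher and 6.60% lower).

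**Figure D1:**
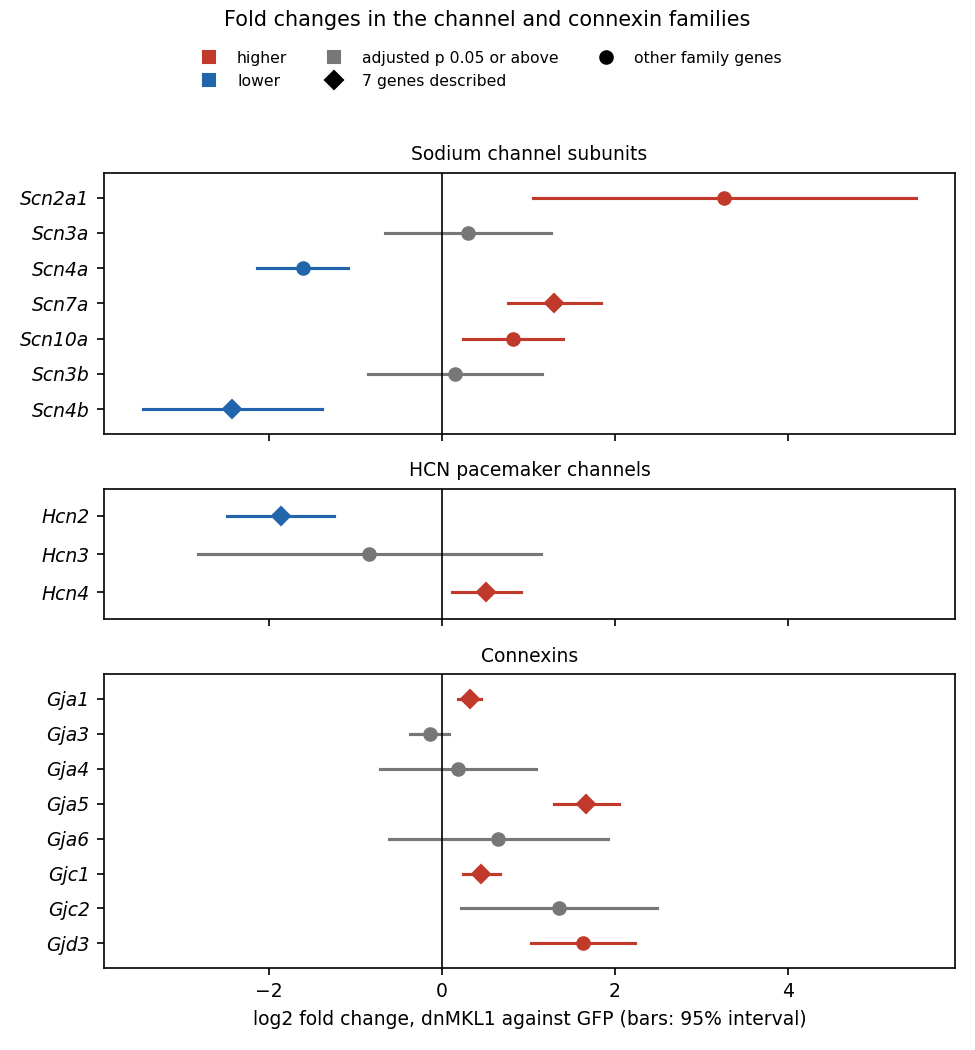
Log2 fold changes of dnMKL1 against GFP for the listed sodium channel, HCN and connexin genes with an adjusted p-value, with 95% intervals from the deposited SE (n = 5 libraries per group). Gja5, Gjd3 and Scn7a lie to the right of 0 and Scn4b, Scn4a and Hcn2 to the left, while Gja3 lies near 0.

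Scn4b encodes the beta-4 subunit, a single-pass membrane protein bound to the alpha subunit that shapes the reopening of the channel on repolarization. Its implied mean was 47.8 normalized counts in GFP and 8.95 in dnMKL1. The authors' deposited table gave a log2 fold change of -2.42 (SE 0.53), or a level 5.35-fold lower (95% interval 2.61 to 10.9), with an adjusted Wald p of 3.8e-05. This was the largest change among the 7 genes and also the one with the largest SE. Scn4b lies on chromosome 9 from 45138395 to 45154152 on the plus strand, as a protein-coding gene with 1 transcript in GENCODE on GRCm38.

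Scn7a encodes Nax, a channel of the same family that senses extracellular sodium rather than opening on depolarization. Its implied mean was 15.7 normalized counts in GFP and 38.7 in dnMKL1. It rose by a log2 fold change of 1.30 (SE 0.27) in the authors' deposited table, 2.47-fold (95% interval 1.70 to 3.57), with an adjusted Wald p of 1.7e-05. Scn7a lies on chromosome 2 from 66673425 to 66784914 on the minus strand. It is also a gene of Schwann cells, for which 8 markers were examined. Of the 7 Schwann markers tested, 2 were higher and 0 lower: S100b, with implied means of 2.40 and 15.1, and Prx, the most abundant of the 7, with 12.3 and 22.7. The fold changes of all 7 were above 0, and 4 of them had an unadjusted Wald p under 0.05. Of the 5 that did not pass, Gfra3 and Ngfr, both receptor genes of the lineage, stood highest, at 2.69 (SE 1.33) and 2.44 (SE 1.12) on the log2 scale in the authors' deposited table, with base means of 1.55 and 1.93. Cdh19, Sox10 and Mbp stood between 0.41 and 0.47 in the authors' deposited table, with base means of 2.97, 2.19 and 3.83. Foxd3 was listed at 0. The 12 fibroblast markers summed to 5245 and 8919, with 5 higher and 0 lower, Col3a1 having the highest base mean (2281). Over all genes tested, 16.6% were higher and 17.4% lower. Fbln1 and Gsn rose most, at 1.38 (SE 0.16) and 1.15 (SE 0.10) in the authors' deposited table, with base means of 1346 and 1414. The fold changes of all 12 fibroblast markers were above 0, and 7 of the 12 had an unadjusted Wald p under 0.05. Of the 7 that did not pass, Tcf21, Postn and Mgp stood highest, at 0.79 (SE 0.52), 0.51 (SE 0.23) and 0.50 (SE 0.24). Pdgfra, Dcn, Lum and Dpt stood at 0.063 (SE 0.25), 0.27 (SE 0.16), 0.25 (SE 0.20) and 0.25 (SE 0.27). The part of other cells in the rise of Scn7a was not tested.

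Among the 13 sodium channel symbols examined, 12 were in the table, Scn9a was listed at 0, and 7 had an adjusted p-value, of which 3 were higher and 2 lower, beside 16.6% higher and 17.4% lower over all genes tested. Scn4a, the alpha subunit of skeletal muscle, fell by 1.60 on the log2 scale (SE 0.27) in the authors' deposited table, from an implied mean of 186 to 61.3. Scn10a, an alpha subunit gene best known from sensory neurons, rose by 0.82 (SE 0.29) in the authors' deposited table, from 108 to 191. The remaining gene past the threshold, Scn2a1, had implied means of 0.434 and 4.17 normalized counts, and no fold is given at so low a level. Of the beta subunit genes, Scn3b had a log2 fold change of 0.15 (SE 0.51) in the authors' deposited table and did not pass, and Scn2b had a base mean of 0.150 normalized counts.

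Hcn2 encodes the HCN channel that predominates in ventricular muscle. Its implied mean was 850 normalized counts in GFP and 234 in dnMKL1. It fell by 1.86 on the log2 scale (SE 0.31) in the authors' deposited table, a level 3.63-fold lower (95% interval 2.37 to 5.56), with an adjusted Wald p of 5.2e-08. Hcn2 lies on chromosome 10 from 79716634 to 79736108 on the plus strand. Hcn4, the main pacemaker channel of the sinoatrial node, lies on chromosome 9 from 58823412 to 58863175 on the plus strand. Its implied means were 161 in GFP and 231 in dnMKL1. The authors' deposited table gave a log2 fold change of 0.52 (SE 0.20), 1.43-fold (95% interval 1.08 to 1.89), and an adjusted Wald p of 0.036, the weakest of the 7 genes.

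Hcn3, a further gene of the family, had implied means of 2.12 and 1.19 normalized counts and was not past the threshold. Hcn2 and Hcn4 thus moved in opposite directions. Per kilobase of the longest transcript, the level of Hcn2 was 266 normalized counts in GFP and 73.3 in dnMKL1, and that of Hcn4 was 26.4 and 37.7, so Hcn2 stood above Hcn4 in both groups by a smaller margin in dnMKL1. The 9 neuronal markers summed to implied means of 231 and 247. Of the 5 tested 1 was higher and 1 lower, beside 16.6% and 17.4% of all genes tested. The higher one was Tubb3, with a base mean of 13.0, and the lower one Dbh, with 80.7. Uchl1 had the highest base mean, 130.2, and without it the sums were 116 in GFP and 101 in dnMKL1. Th, Prph and Snap25 had base means under 1 and Chat was listed at 0. Whether the sum follows neuronal RNA was not tested.

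Gja1 was the most abundant of the 7 genes. Its implied mean was 21822 normalized counts in GFP and 27268 in dnMKL1. The authors' deposited table gave a log2 fold change of 0.32 (SE 0.068), 1.25-fold (95% interval 1.14 to 1.37), with an adjusted Wald p of 2.0e-05. Gja1 lies on chromosome 10 from 56377330 to 56402513 on the plus strand. The 7 cardiomyocyte markers past the threshold moved the other way under the authors' scaling. Their calls with both groups scaled to the same summed count are not given here. The authors' deposited table listed -0.87 (SE 0.11) for Myh6, the major cardiac myosin heavy chain, and -1.55 (SE 0.15) for Actc1, cardiac actin.

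Gja5 showed the smallest p-value of the 7 genes. Its implied mean was 215 normalized counts in GFP and 686 in dnMKL1. It rose by a log2 fold change of 1.67 (SE 0.19) in the authors' deposited table, 3.18-fold (95% interval 2.45 to 4.14), with an adjusted Wald p of 4.2e-16. Gja5 lies on chromosome 3 from 96904693 to 97077416 on the plus strand. Its exons share 165 of 5746 bases with Gpr89 on the opposite strand, whose log2 fold change was -0.12 (SE 0.11) in the authors' deposited table. Whether the counting used strand is not given in the sources used here.

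Atrial muscle and arterial endothelium also carry Gja5. Of the 10 atrial markers, 8 had an adjusted p-value, and of these 1 was higher (Stard10, log2 fold change 0.42, SE 0.15, in the authors' deposited table) and 0 lower. Their implied means summed to 2810 in GFP and 8721 in dnMKL1, most of it Nppa (1935 and 7359), for which the authors' deposited table lists no p-value. The authors' deposited table gave 0.37 (SE 0.76) for Myl4, 0.42 (SE 1.24) for Myl7 and 1.43 (SE 1.55) for Sln, so that their intervals reach far to both sides of 0. The lowest atrial markers were Nr2f1, with implied means of 1.57 and 1.85, and Bmp10, with 7.76 and 7.66. The 8 arterial endothelial markers summed to 465 and 634, with 2 higher (Unc5b and Jag1) and 0 lower. Efnb2, with the highest base mean of them (148), stood at 0.45 (SE 0.26) in the authors' deposited table and did not pass. Bmx, Sox17, Dll4 and Hey1, at 0.51 (SE 0.50), 0.23 (SE 0.35), 0.070 (SE 0.36) and -0.021 (SE 0.39), did not pass either. Beside the atrial and arterial counts, 16.6% of all genes tested were higher and 17.4% lower. Gja4 (Cx37), the other arterial connexin, had a log2 fold change of 0.19 (SE 0.46) in the authors' deposited table. The 12 general endothelial markers summed to 4399 and 4458, with 0 past the authors' Wald threshold and 0 at an unadjusted p under 0.05, and Kdr had the highest base mean, 876. The part of atrial or arterial cells in the rise of Gja5 was not tested.

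Gjc1 had implied means of 632 normalized counts in GFP and 869 in dnMKL1. It rose by a log2 fold change of 0.46 (SE 0.11) in the authors' deposited table, 1.38-fold (95% interval 1.19 to 1.59), with an adjusted Wald p of 1.1e-04. Gjc1 lies on chromosome 11 from 102799579 to 102819700 on the minus strand. The 10 mural markers, of smooth muscle and pericytes, summed to 18260 and 15959. Of these, 3 were higher and 1 lower, beside 16.6% and 17.4% of all genes tested. The lower one was Acta2, with the highest base mean (7726) and implied means of 10454 and 4999, which set the direction of the sum. Without Acta2, a choice made after its values were seen, the other 9 had fold changes above 0 and summed to 7805 and 10960. Those past the threshold were Cspg4, at 2.01 (SE 0.18) on the log2 scale in the authors' deposited table, Myh11, at 0.73 (SE 0.20), and Tagln, at 0.72 (SE 0.18). Most of the sum without Acta2 was Abcc9 (base mean 7052), at 0.30 (SE 0.15) in the authors' deposited table, which did not pass. Rgs5, Kcnj8 and Pdgfrb, at 0.014 (SE 0.31), 0.029 (SE 0.30) and 0.18 (SE 0.24), did not pass either. The part of mural cells in the rise of Gjc1 was not tested.

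Of the 20 connexin genes, 7 were listed at 0 and 8 had an adjusted p-value, of which 4 were higher and 0 lower, with 5 at an unadjusted p under 0.05, beside 16.6% higher and 17.4% lower over all genes tested. Besides Gja1, Gja5 and Gjc1 these were Gjd3, a connexin of the atrioventricular node, at 1.63 (SE 0.31) in the authors' deposited table, with implied means of 13.0 and 40.2. Gja3, best known from the lens, had a log2 fold change of -0.14 (SE 0.12) in the authors' deposited table and did not pass. Gja1 made up 92.1% of the summed connexin level per kilobase of the longest transcript in GFP and 90.9% in dnMKL1. The share of Gja5 was 0.964% in GFP and 2.42% in dnMKL1, and that of Gjc1 was 3.04% and 3.30%. These shares depend on the length used, and those at the median transcript length were not computed. At that length the base mean per kilobase was 14058 for Gja1 in place of 6311, and 145 for Gja5 in place of 123.

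The levels of the 7 genes were set in order within each group (n = 5 libraries), per kilobase of the longest GENCODE transcript. Each is given with the SD between libraries that the deposited SE implies. This SD uses 1 dispersion per gene, taken as equal in both groups, so it is not a spread measured within either group. In GFP the level was 5611 ± 417 for Gja1, 266 ± 91.0 for Hcn2, 185 ± 21.8 for Gjc1 and 58.7 ± 12.7 for Gja5 (implied SD). It was 26.4 ± 5.98 for Hcn4, 9.60 ± 5.19 for Scn4b and 2.14 ± 0.722 for Scn7a. Only Hcn2 and Gjc1 were neighbours whose ranges of 1 SD met in GFP. In dnMKL1 the level was 7011 ± 521 for Gja1, 255 ± 29.3 for Gjc1, 187 ± 38.7 for Gja5 and 73.3 ± 25.4 for Hcn2. It was 37.7 ± 8.32 for Hcn4, 5.27 ± 1.38 for Scn7a and 1.80 ± 1.10 for Scn4b, and the ranges of Gjc1 and Gja5 met. Hcn2 thus stood at place 2 in GFP and place 4 in dnMKL1, and Scn4b and Scn7a stood in opposite order in the 2 groups. With the median transcript length, Gjc1 stood above Hcn2 in GFP as well, within 1 SD.

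**Figure D2:**
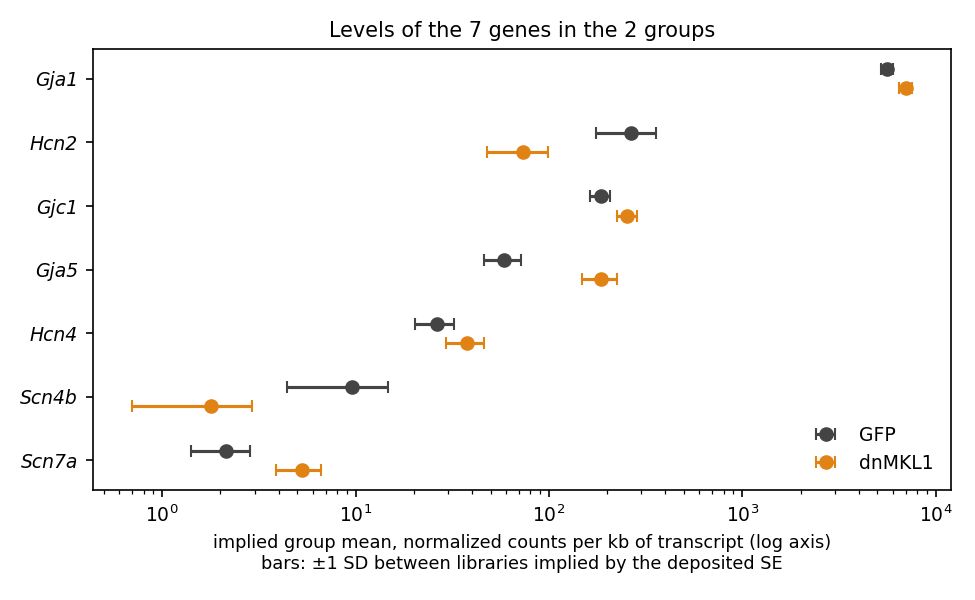
Implied group means of the 7 genes in normalized counts per kilobase of the longest transcript, on a log axis, with bars of 1 SD between libraries implied by the deposited SE (n = 5 per group). The bars use 1 dispersion per gene, taken as equal in both groups, and are not spreads measured within a group. Hcn2 and Scn4b are lower in dnMKL1 and the other 5 genes higher, from 58.7 to 187 for Gja5 and from 266 to 73.3 for Hcn2.

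The 7 genes differed in how much they varied between libraries. The coefficient of variation (CV) between libraries that yields the deposited SE, beyond counting error, was 7.40% for Gja1, lower than in 97.5% of the 200 genes of nearest base mean (median 11.9%). For Gjc1 it was 11.0%, near the median of 10.1% among its neighbours. It was 20.4% for Gja5, 20.8% for Scn7a and 21.1% for Hcn4, with neighbour medians of 10.9%, 27.3% and 12.6%. Both genes that fell were the most variable: the CV was 34.0% for Hcn2, above 98.0% of genes of like base mean, and 51.8% for Scn4b, above 94.5%. Counting error made up 49.6% of the squared SE for Scn7a and 18.3% for Scn4b, but 2.13% for Hcn2 and 0.721% for Gja1. The CV of Hcn2 lay within the range of endothelial markers (25.3% to 57.4%). That of Gja5 lay below 7 of the 8 atrial markers with a CV, which ran up to 170% for Sln. These markers were not matched to Hcn2 or Gja5 in base mean. Whether other cells have a part in the spread of either gene was not tested.

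**Figure D3:**
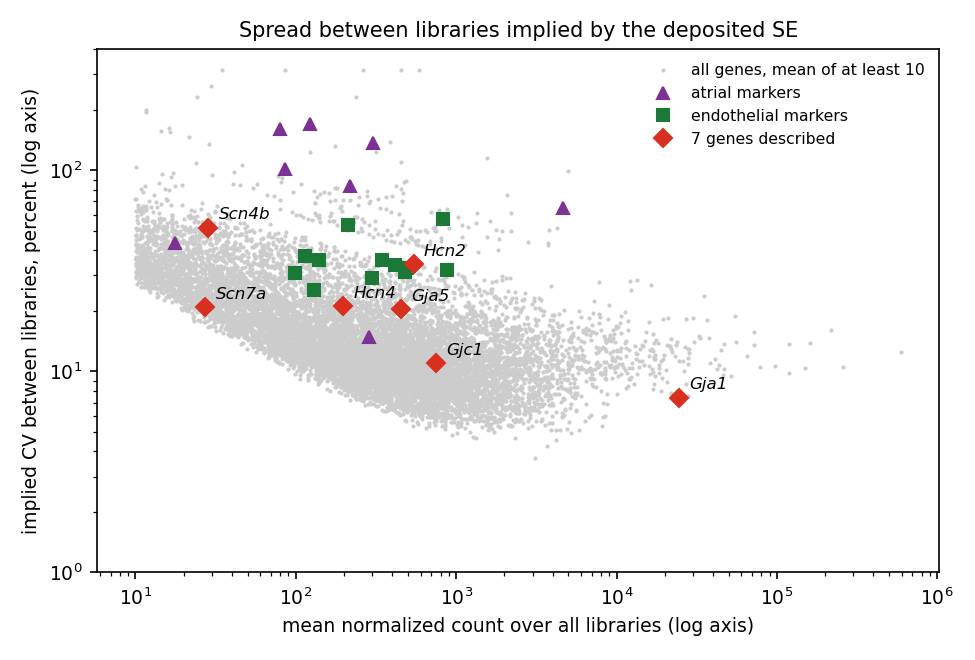
CV between libraries implied by the deposited SE, against base mean, for all genes at a base mean of 10 or more (grey), the 7 genes (diamonds), atrial markers (triangles) and endothelial markers (squares), on log axes. Gja1 at 7.40% lies near the lower edge, Hcn2 at 34.0% and Scn4b at 51.8% near the upper edge, and 7 of the 8 atrial markers lie above Gja5 at 20.4%.

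Transcription factors of the conduction system and of chamber muscle were examined next, from a list of 18 genes. Of the 16 with an adjusted p-value, 4 were higher, 2 lower and 10 did not pass, with a median log2 fold change of 0.19, beside 0.021 over all genes tested, of which 34.1% were past the threshold (16.6% higher and 17.4% lower). The genes that rose were Irx3 and Irx5, homeobox factors of ventricular conduction and repolarization, Etv1, a factor of fast-conducting muscle, and Id2, known from the ventricular conduction system. On the log2 scale the authors' deposited table listed 0.84 (SE 0.16) for Irx3, 0.81 (SE 0.15) for Irx5, 0.87 (SE 0.19) for Etv1 and 1.07 (SE 0.21) for Id2. Irx4, a factor of ventricular identity, and Prox1 were lower, at -0.31 (SE 0.077) and -0.41 (SE 0.11) in the authors' deposited table, but neither was past the threshold with both groups scaled to the same summed count. Under that scaling 12 of the 16 were higher and 0 lower, where 40.4% of all genes tested were higher and 6.60% lower. The nodal factor Tbx3 and the cardiac factors Nkx2-5 and Tbx5 stood at 0.15 (SE 0.15), -0.0031 (SE 0.099) and -0.019 (SE 0.092) in the authors' deposited table and did not pass. Shox2, of the sinoatrial node, had a base mean of 0.219, and Isl1 was listed at 0.

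Of 17 other genes of pacemaking and conduction, 16 had an adjusted p-value, with 4 higher, 3 lower and a median log2 fold change of 0.0025, beside 16.6% higher and 17.4% lower over all genes tested. Cacna1g, a T-type calcium channel, rose by 1.04 (SE 0.15) in the authors' deposited table, from an implied mean of 747 to 1533. Cntn2, a cell adhesion gene used as a marker of Purkinje cells, rose by 1.05 (SE 0.26) in the authors' deposited table, from 504 to 1043. Ntm, a related adhesion gene, rose by 1.25 (SE 0.30), from 47.3 to 112. Smoc2, a matrix protein gene, fell by 1.98 (SE 0.18), from 281 to 71.2. Kcnj5, with the highest base mean of the list, had a log2 fold change of 0.014 (SE 0.059) in the authors' deposited table and did not pass. Cpne5, with a base mean of 33.8, stood at 0.0029 (SE 0.47) and did not pass either. With both groups scaled to the same summed count, 6 were higher and 1 lower, beside 40.4% and 6.60% of all genes tested.

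Genes whose products bind or regulate the channels were lower where they passed, except when both groups were scaled to the same summed count. Of the 15 channel partners with an adjusted p-value, 0 were higher and 6 lower (8 of 16 had an unadjusted p under 0.05), with a median log2 fold change of -0.23. Over all genes tested 34.1% were past the threshold, 16.6% higher and 17.4% lower. With both groups scaled to the same summed count 4 partners were higher and 2 lower, beside 40.4% and 6.60% of all genes tested. Camk2d, a kinase that acts on the sodium channel, and Rangrf, which helps it reach the cell surface, were lower under both scalings. The authors' deposited table gave -0.74 (SE 0.099) for Camk2d and -0.89 (SE 0.15) for Rangrf. Gpd1l and Cav3, both tied to sodium current, were at -0.46 (SE 0.081) and -0.42 (SE 0.11) in the authors' deposited table and did not pass under the other scaling.

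Proteins of the intercalated disc hold gap junctions and sodium channels at the cell ends. All 17 genes examined had an adjusted p-value, with 4 higher, 4 lower, a median log2 fold change of 0.10 and no absolute log2 fold change above 0.44, beside 16.6% higher and 17.4% lower over all genes tested. Jup, the plakoglobin gene, rose by 0.27 (SE 0.059) in the authors' deposited table. Tjp1, the scaffold that binds the connexin of Gja1, had 0.16 (SE 0.14) and did not pass. Ldb3, Dsc2 and Ctnna1 were lower, at -0.38 (SE 0.075), -0.30 (SE 0.085) and -0.31 (SE 0.089) in the authors' deposited table, and did not pass with both groups scaled to the same summed count, where 12 genes were higher and 0 lower, beside 40.4% and 6.60% of all genes tested. Des had the highest base mean of the list, 27952.

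**Figure D4:**
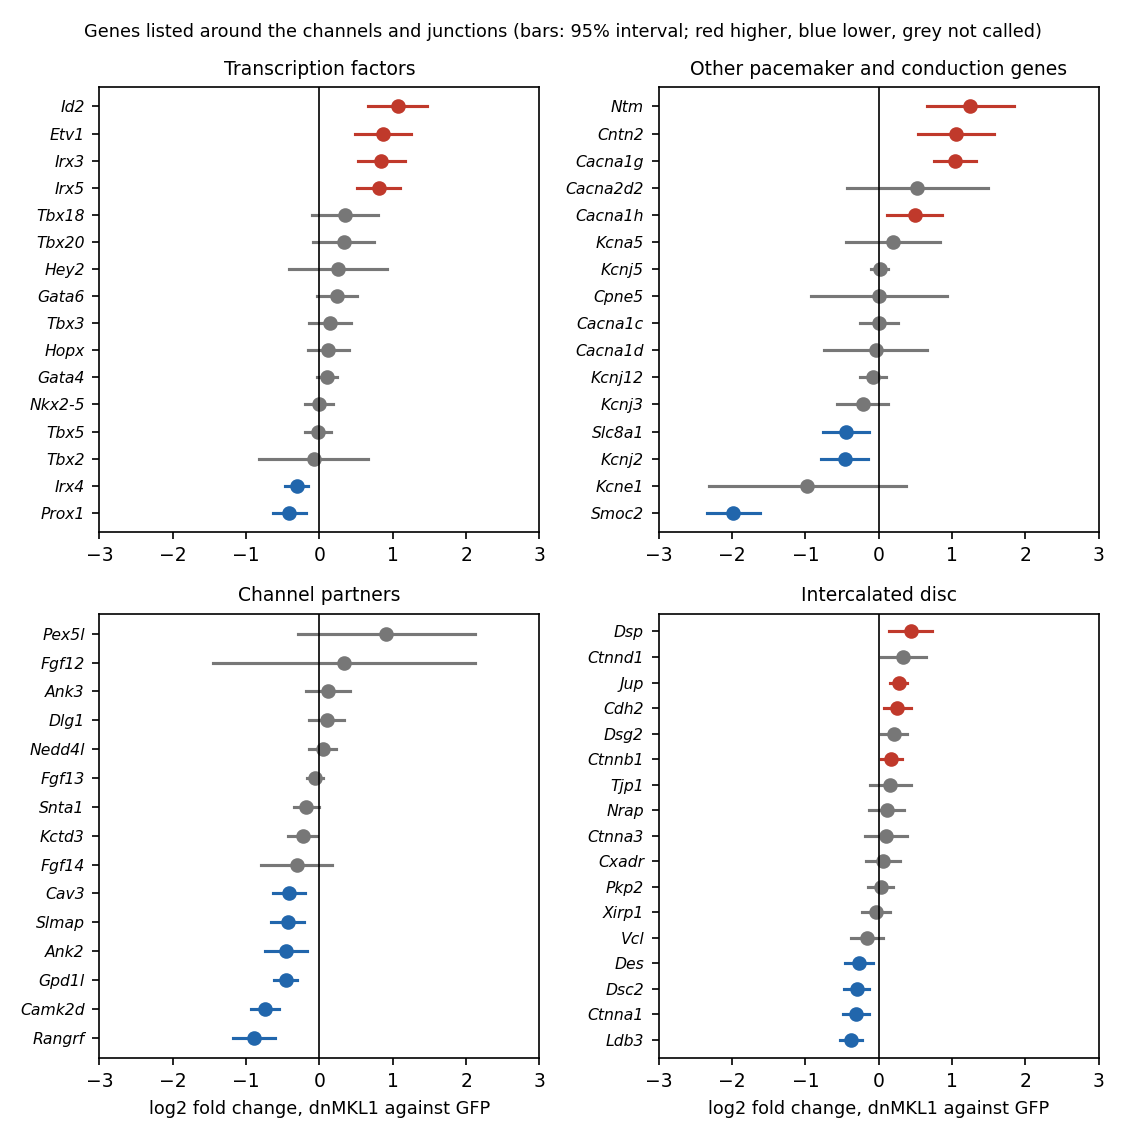
Log2 fold changes of dnMKL1 against GFP with 95% intervals (n = 5 libraries per group) for the listed transcription factors, other pacemaker and conduction genes, channel partners and intercalated disc genes with an adjusted p-value, under the authors' scaling. Id2, Etv1, Irx3 and Irx5 stand apart on the right of their panel, Smoc2 on the left of its panel, and all disc genes lie between -0.38 and 0.44.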

How the data were processed

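RNA of sorted cardiomyocytes was measured in 10 libraries, 5 in each group. The authors used STAR for alignment and featureCounts for counting, per the labels; the submitters' processing notes name STAR 2.5.3a, Subread 1.5.2 and mm10. Annotation and strand setting are not given in the sources used here. The deposited table holds the authors' comparison only, with no values per library: the base mean, a signal in normalized counts, and, per the file headers, the deposited log2 fold change, its SE, the Wald score and p-values. The planned count test was therefore replaced by the authors' adjusted p-value, under 0.05, over 14056 genes.

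Implied group means average to the base mean and differ by the fold change. Size factors came from genes whose base mean is that of 1 read in a single library. The CV is the square root of the negative binomial dispersion that yields the deposited SE at those size factors, with 1 dispersion per gene taken as equal in both groups. It includes any smoothing of dispersions in the authors' fit and was solved with scipy 1.17.1. A simulation in which the fit was given the true dispersion checked the formula only. It could not test how well the authors' fit estimated dispersions. Intervals are the fold change ± 1.96 SE. The replicates are biological per the labels, which give no litter or batch. Lengths and positions came from GENCODE on GRCm38, promoters from RefSeq. The genes, 7 process lists and 8 marker lists were chosen with earlier results of these data known. Of each process list, up to 4 genes past the threshold with the smallest p-values were named. For most lists the most abundant gene was named too. The marker lists did not follow the rule of smallest p-values throughout, and other genes were added after their values were seen. Some genes of the lists are not reported here, counts and sums leave them out, and no sum is given for the Schwann markers.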

Additional observations from a re-analysis of the deposited data

How the results depend on the processing

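Thresholds of 0.01 and 0.1 and adjustment over every p-value leave the fold changes as they are. So do a base mean of at least 100 (5 genes) and a minimum fold, so direction could not change there. Total-count scaling adds 0.29 to every log2 fold change and median-centring takes off 0.0041. All 7 genes kept their direction under both, but none stood near enough to 0 to be reversed by such shifts. A threshold of 0.01 lost Hcn4 (log2 fold change 0.52), and a minimum absolute log2 fold change of 0.5 lost Gja1 (0.32) and Gjc1 (0.46), by its construction. The threshold of 0.01 left 3 sodium channel, 1 HCN, 4 intercalated disc and 4 other conduction genes in place of 5, 2, 8 and 7. The minimum fold left 2 connexin, 2 channel partner, 0 disc and 4 other conduction genes in place of 4, 6, 8 and 7, and 10 disc genes had an unadjusted p under 0.05 by the authors' Wald test. A base mean of at least 100 left 2 sodium channel genes. The shares over all genes were not computed for the threshold of 0.01, the minimum fold or the base mean of 100. Whether these losses differ from those of any other genes is therefore unknown. Total-count scaling raised the transcription factors past the threshold from 6 to 12, by the shift of 0.29 itself. With the median transcript length the level per kilobase was 14058 for Gja1 and 395 for Gjc1, in place of 6311 and 220. No paired analysis was possible because the table holds no values per library; fits without 1 library, other count tests and the block on replicate number were not run for the same reason, so whether 1 library decides a value is unknown.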

Other observations

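The table lists a fold change without a p-value for 8 genes. These include Nppa, Myh7 and Mybphl, genes of atrial or immature muscle, listed at log2 values of 1.93 (SE 0.60) for Nppa, 0.92 (SE 0.90) for Myh7 and 1.60 (SE 1.47) for Mybphl in the authors' deposited table.

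Among the neuronal markers, Tubb3, a tubulin gene, had implied means of 0.784 normalized counts in GFP and 25.2 in dnMKL1 and was past the threshold (adjusted Wald p 4.8e-07 in the authors' deposited table). Dbh, the enzyme that makes noradrenaline, was lower at -0.64 (SE 0.26) in the authors' deposited table, from 98.5 to 63.0.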
